A study of Mus musculus with 2 samples.

Results

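The cells described here are thymocytes that carried RNA of genes switched on by strong T cell receptor signals or by regulatory T cells. They were selected on unique molecular identifiers (UMIs, each a counted RNA molecule) of a gate: a cell needed at least 3 UMIs summed over Foxp3, Ikzf2, Tnfrsf4 and Tnfrsf9, 0 of the B cell gene Cd79a, under 10 of Cd74, H2-Aa and H2-Eb1 together, and at most 2 of the cell cycle genes Mki67, Top2a, Rrm2 and Mcm5 together. Of 3072 cells kept in both libraries, 252 met the gate, 83 of 1341 in the wild type library and 169 of 1731 in the mutant library. The members were chosen by the measured UMIs of the 4 gate genes, so the values of these genes are given as a description and support nothing. They are called gated cells here because most of them held no Foxp3 UMI.

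In the thymus, double-positive (CD4+ CD8+) thymocytes are tested through their T cell receptor. A weak signal from self peptide leads to positive selection, and a strong, agonist signal leads to deletion, to the regulatory T cell lineage or to innate-like lineages. Among the pathways downstream are NF-kB and the NR4A factors. Strongly signalled cells express the TNF receptor family members Tnfrsf4 (OX40), Tnfrsf9 (4-1BB) and Tnfrsf18 (GITR), the transcription factor Ikzf2 (Helios) and the pro-apoptotic Bcl2l11 (BIM), while Foxp3 is the lineage factor of regulatory T cells.

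Mouse thymocytes were profiled by droplet single-cell RNA sequencing in 1 wild type library and in 1 library homozygous for mutation of GATA sites 1 and 2 of NMe, a distal enhancer of Myc that NOTCH1 binds in T cells. No age, strain or number of animals is stated in the sources used here. With 1 library per genotype no test was possible: every comparison is between these libraries or between sets of cells in them, and every interval covers counting error only, at 95%. Levels are UMIs summed over a set of cells scaled to 1000000 UMIs of that set (CPM).

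The wild type library held 1346 barcodes and 6638880 UMIs and the mutant library 1737 barcodes and 6364506 UMIs. The median kept cell held 3329 UMIs in wild type, and 2596 UMIs was the mutant median. The shallowest barcodes held 1781 and 1416 UMIs. The gated cells were closer in depth, with medians of 2877 and 2941 UMIs. The libraries shared 1 cell barcode, which was in no gated cell. Scrublet, a doublet caller, marked 1 and 5 kept cells and 0 gated cells.

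Promoters of Rel and Nfkbia, which encode an NF-kB subunit and its inhibitor, and of AW112010, a gene of a non-coding RNA, are shown first, because their RNA was higher in the gated cells than in other post-selection cells and their promoters held NF-kB motifs. The 250 bases before the gene start are from RefSeq on GRCm38.p6, read along the gene's strand, with matches to the kappa-B motif in capitals. Rel at chr11:23770970-23771219 on the minus strand held 2 overlapping matches and Nfkbia at chr12:55492648-55492897 on the minus strand 1 match. AW112010 at chr19:11050567-11050816 on the minus strand also held 1 match.
Rel: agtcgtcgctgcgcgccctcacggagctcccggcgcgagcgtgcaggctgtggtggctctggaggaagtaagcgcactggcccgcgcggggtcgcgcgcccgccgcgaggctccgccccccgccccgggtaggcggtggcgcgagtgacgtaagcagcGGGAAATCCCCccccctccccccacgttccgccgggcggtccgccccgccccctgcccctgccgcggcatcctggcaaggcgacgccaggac
Nfkbia: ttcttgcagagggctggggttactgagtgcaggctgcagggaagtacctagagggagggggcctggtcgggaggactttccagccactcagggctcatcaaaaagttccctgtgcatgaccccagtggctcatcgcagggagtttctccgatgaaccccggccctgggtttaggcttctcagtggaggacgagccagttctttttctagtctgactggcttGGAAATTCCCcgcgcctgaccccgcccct
AW112010: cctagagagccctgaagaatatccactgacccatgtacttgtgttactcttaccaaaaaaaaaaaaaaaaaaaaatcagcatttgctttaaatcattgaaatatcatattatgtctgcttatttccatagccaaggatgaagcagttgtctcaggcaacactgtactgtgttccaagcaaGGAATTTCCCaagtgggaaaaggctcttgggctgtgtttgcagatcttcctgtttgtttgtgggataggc
The kappa-B motif, searched on both strands, was found in such a window of 8.23% of 27025 genes with a window. Of the 19 genes of the NF-kB list 16 had a window and 8 held the motif, namely Nfkb2, Rel, Nfkbie, Nfkbia, Tnfaip3, Traf3, Cyld and Tnip1. Of 10 leading genes of the gated cells with a window, AW112010 alone held it. The NR4A motif NBRE (AAAGGTCA, both strands) was in 1.55% of genes and the AP-1 motif (TGANTCA, both strands) in 7.82%, and neither was in a window of the 10 leading genes. A match is a description of these letters and says nothing on binding.

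Helios RNA carried the gate. Ikzf2 gave 77.8% of the gate UMIs in wild type (397 of 510) and 74.2% in mutant (941 of 1269). It was found in 81 of 83 and 159 of 169 gated cells. It was the single gate gene detected in 51 wild type and 77 mutant cells, and 66 and 120 cells would miss the gate without it. Tnfrsf4 was found in 21 and 56 cells and Tnfrsf9 in 20 and 54 cells. Foxp3 was found in 4 wild type cells with 6 UMIs and in 13 mutant cells with 15 UMIs, 4.82% (1.33% to 11.9%) and 7.69% (4.16% to 12.8%) of the gated cells by Clopper-Pearson intervals. Resting double-positive cells, which should lack Foxp3, had a gate sum under 3 and the same exclusions. They also had a UMI of Rag1 or Rag2, a Cd8 UMI and at most 1 UMI of Itm2a and Cd69 together. They held Foxp3 UMIs in 1 of 296 and in 0 of 399, at median depths of 2191.5 and 1891 UMIs. The 0 allows a share of cells with a UMI of up to 0.752%, which does not limit the cells that express the gene. Foxp3 counts in the gate sum, so these low shares follow in part from the choice of cells. Few of the gated cells thus held Foxp3, the factor behind the label of regulatory T precursors. Nearly all held Ikzf2, which follows from the gate and does not bear on the label. Ikzf2 UMIs were also found in 54 of 296 and 72 of 399 resting double-positive cells.

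**Figure D1:**
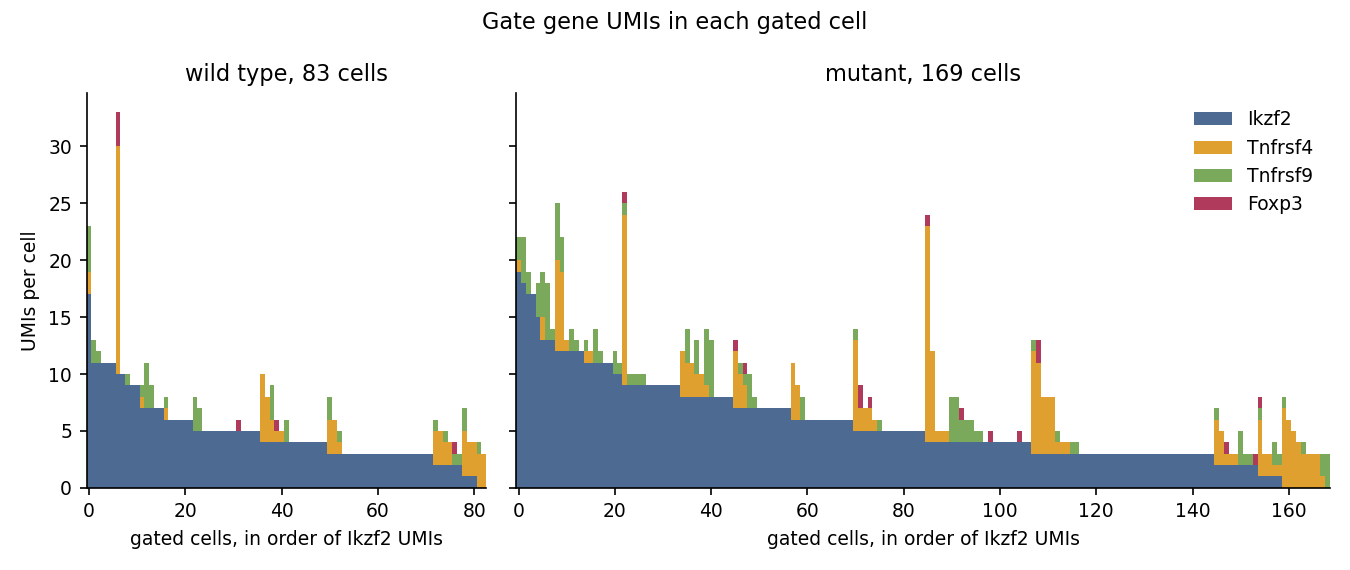
UMIs of Ikzf2, Tnfrsf4, Tnfrsf9 and Foxp3 (stacked bars, y axis in UMIs) in each gated cell of the wild type library (83 cells) and the mutant library (169 cells), ordered along the x axis by Ikzf2 UMIs. Ikzf2 makes up over 50% of the bar in 67 of 83 wild type and 138 of 169 mutant cells, and Foxp3 appears in 4 and 13 cells.

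Levels just above and just below the gate rested on few UMIs. A gate sum of exactly 3 was held by 21 wild type and 41 mutant cells, and a sum of 2 by 43 and 76 cells that passed the other terms. Tnfrsf18 was at 25.6 CPM at a sum of 3 and 30.7 CPM at a sum of 2 in wild type, and at 107 and 97.3 CPM in mutant. Bcl2l11 was at 38.5 and 18.4 CPM in wild type and at 161 and 106 CPM in mutant. Nr4a1, an immediate early gene of receptor signalling, was at 141 and 24.6 CPM in wild type and at 99.7 and 42.3 CPM in mutant. Itm2a, a membrane protein gene induced at positive selection, was at 205 and 79.9 CPM and at 376 and 237 CPM, and Izumo1r, the folate receptor FR4, at 76.9 and 30.7 CPM and at 192 and 106 CPM. Ikzf4, the Helios relative Eos, was at 89.7 and 30.7 CPM in wild type and at 15.3 and 21.1 CPM in mutant, from 2 and 5 UMIs. Except for Nr4a1 in wild type (70.4 to 252 and 6.70 to 63.0 CPM, 11 and 4 UMIs), the intervals at both sums overlapped. At a sum of 3 in mutant, 1 cell gave 76.9% of the Nr4a1 and 1 cell 66.7% of the Bcl2l11 UMIs. In wild type 1 cell gave 62.5% of the Itm2a UMIs. These values thus do not show a step that differs between genes.

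The gated cells were a larger share of all kept cells in the mutant library, 9.76% (8.41% to 11.3%) against 6.19% (4.96% to 7.62%) in wild type. The difference was 3.57 percentage points, with a Newcombe interval of 1.64 to 5.47. With each cell thinned to 1500 UMIs and the gate set at 2 UMIs, 87 of 1341 cells (6.49%) and 158 of 1634 cells (9.67%) met it, with 97 shallower mutant cells left out. With both libraries cut at 1781 UMIs per cell, which left out 387 mutant cells, the shares were 6.19% and 10.6%. Cells with a Foxp3 UMI made up 0.298% of the wild type and 0.751% of the mutant library, and that difference of 0.45 points had an interval of −0.11 to 1.01. Each share is of all kept cells, so it moves with every other cell type in the library. The kept cells include those left out by the B cell, antigen presentation and cell cycle terms of the gate. A gate sum of at least 3 was held by 117 wild type and 199 mutant cells, of which these terms left out 34 and 30. Cells that passed these terms with a gate sum of 0 numbered 518 in wild type and 892 in mutant. The part of the cells left out in the difference in share was not tested.

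The gated cells were then divided into 3 sets, after their composition had been seen. Cells with at least 2 UMIs of 14 innate-like T and NK cell genes, among them Xcl1, Nkg7, Klrd1 and Ccl5, formed an innate-like marked set of 19 wild type and 41 mutant cells. The others were split into cells with a UMI of Foxp3, Tnfrsf4 or Tnfrsf9 (28 and 72 cells) and cells gated by Ikzf2 alone (36 and 56 cells). The set with Foxp3 or a TNF receptor was 2.09% of the wild type and 4.16% of the mutant library, a difference of 2.07 points (0.83 to 3.30). The Ikzf2-alone set was 2.68% and 3.24%, a difference of 0.55 points whose interval of −0.70 to 1.75 spans 0. The innate-like marked set was 1.42% and 2.37%, with an interval of −0.05 to 1.92 points. These shares too are of all kept cells and not of the cells that passed the other terms of the gate. The part of the cells left out by those terms was not tested, nor whether these differences differ from each other.

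Gated cells carrying Foxp3, Tnfrsf4 or Tnfrsf9 held more RNA of the regulatory T cell genes Izumo1r and Tnfrsf18. Cells gated by Ikzf2 alone held more of several double-positive genes. The whole list of regulatory T cell genes outside the gate, these genes included, summed to 1548 CPM in the first set against 476 in wild type. In mutant the sums were 1557 against 554 CPM. Of 682 genes measured (at least 30 UMIs over both sides in each library), 5 were at least 2-fold higher in the first set in both libraries (0.733%) and 12 at least 2-fold lower (1.76%), with 20 CPM added to both sides. The 5 were Izumo1r, Ifi27l2a, Tnfrsf18, H2-K1 and Vim. Izumo1r, found on regulatory and anergic T cells, was at 331 CPM against 21.1 in wild type and at 220 against 31.8 in mutant. Its log2 ratio was 3.97 (1.99 to 7.08) and 2.79 (1.47 to 4.48). Other post-selection cells, which are outside the gate, held Izumo1r at 156 and 136 CPM. Tnfrsf18, a TNF receptor of regulatory T cells, was at 374 against 31.7 CPM in wild type and at 418 against 115 in mutant. The class I MHC heavy chain gene H2-K1, which rises as thymocytes mature, was at 598 against 243 CPM and at 891 against 395. Ifi27l2a, an interferon-inducible gene, was at 1836 against 359 CPM and at 2769 against 821. For each of these genes both libraries gave the same direction, with intervals clear of 0.

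Some regulatory T cell genes had too few UMIs to be ranked. Ikzf4 was at 96.1 against 74.0 CPM in wild type and at 142 against 19.1 in mutant. Gpr83 had 12 UMIs in the wild type set with Foxp3 or a TNF receptor and 0 in the Ikzf2-alone cells. The chemokine receptor Ccr7 was at 139 against 21.1 CPM in wild type and at 234 against 82.8 in mutant, and it too had few UMIs.

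In the Ikzf2-alone cells the 12 higher genes were Arpp21, Id3, Sh2d1a, Sla, Ly6d, Gmfg, Ap3s1, Dntt, Ccr9, Edem1, Ptpn7 and Cd8a. Arpp21, a phosphoprotein gene of double-positive thymocytes, was at 338 against 64.1 CPM in wild type and at 420 against 45.9 in mutant. Dntt, the terminal transferase used during receptor rearrangement, was at 306 against 128 CPM and at 433 against 36.7. Id3, an E protein inhibitor induced by receptor signals, was at 719 against 235 CPM and at 821 against 239. Sh2d1a encodes the SLAM adaptor SAP and was at 560 against 139 CPM and at 401 against 138. All 4 genes were thus higher in Ikzf2-alone cells of both libraries. The receptor response gene Egr1 was at 201 against 10.7 CPM in wild type and at 95.5 against 41.3 in mutant, the second with an interval that spans 0, and it had too few UMIs to be ranked. Bcl2l11 did not follow one direction: it was at 137 against 235 CPM in wild type and at 274 against 133 in mutant.

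**Figure D2:**
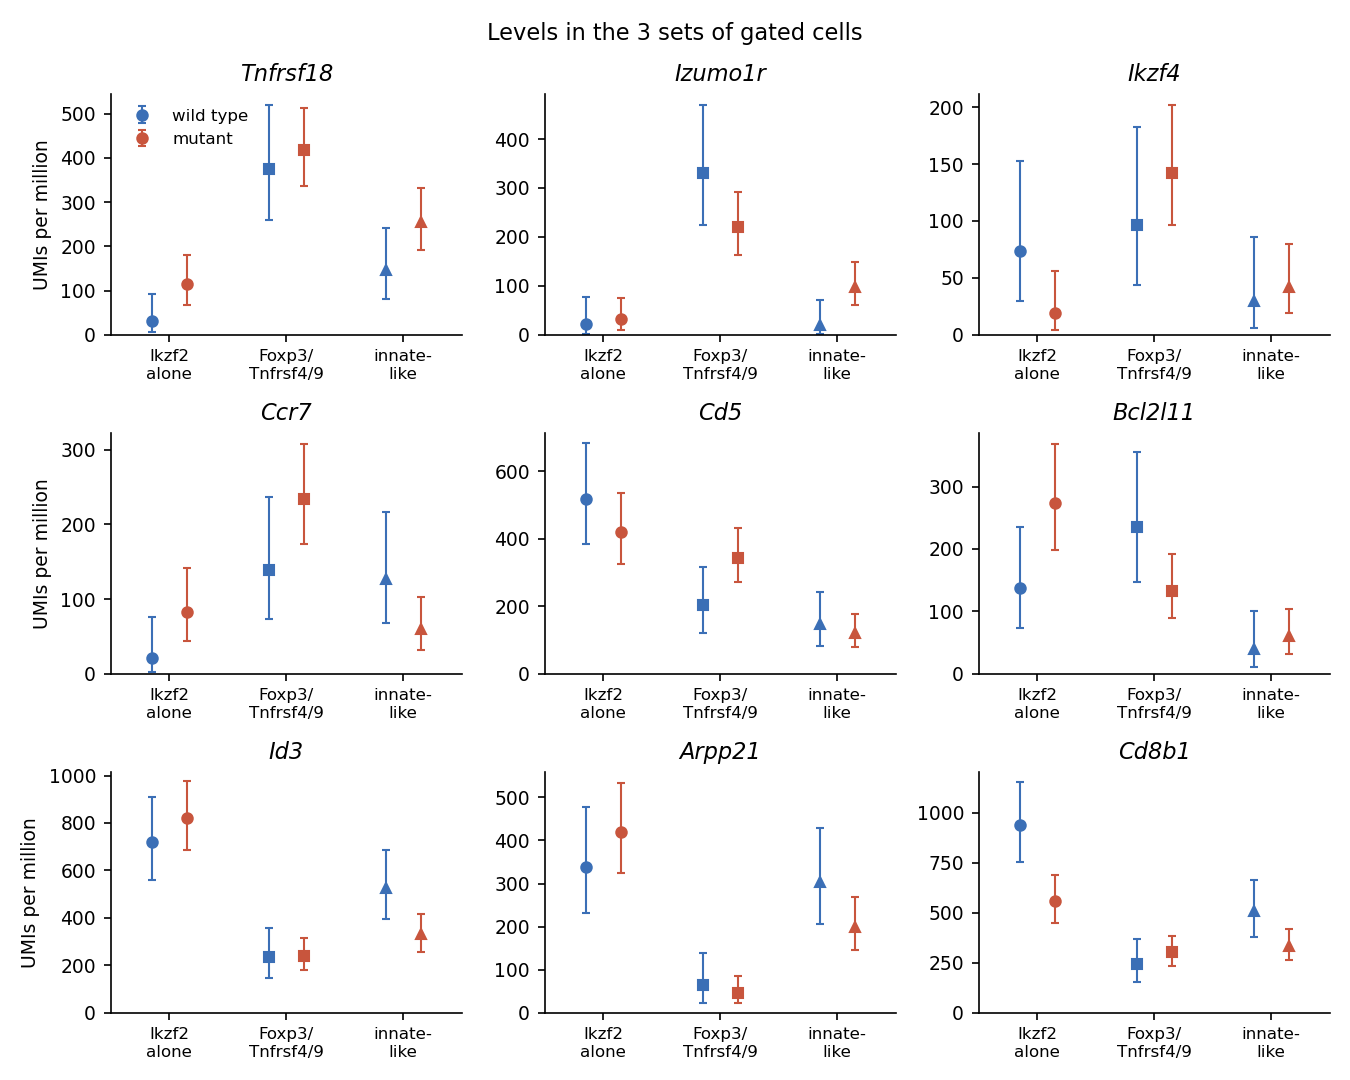
Levels in CPM (y axis) of 9 genes in the 3 sets of gated cells (x axis), wild type blue and mutant red, with exact Poisson intervals that cover counting error only. In both libraries Tnfrsf18 and Izumo1r are highest in cells with Foxp3 or a TNF receptor, and Id3, Arpp21 and Cd8b1 in cells gated by Ikzf2 alone.

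The innate-like marked cells held less RNA of Itm2a, Cd5, Cd28 and Bcl2l11 than the other gated cells. Against the other gated cells 1 of 1150 genes was at least 2-fold higher in both libraries (0.087%) and 9 were lower (0.783%), marker genes left out. The higher gene was AW112010, at 322 against 106 CPM in wild type and at 600 against 195 in mutant. Among the lower genes Itm2a was at 97.6 against 366 CPM and at 167 against 566. Cd5, a negative regulator whose level follows receptor signal strength, was at 146 against 361 CPM and at 121 against 376. Bcl2l11 was at 39.0 against 186 CPM and at 60.4 against 192, and the costimulatory receptor gene Cd28 at 361 against 876 and at 199.9 against 632. Nr4a1 did not share that direction in wild type, where it was at 166 CPM in innate-like marked cells, 107 CPM in the set with Foxp3 or a TNF receptor and 159 CPM in Ikzf2-alone cells. In mutant it was at 112, 188 and 293 CPM. These cells were also deeper, with medians of 4358 and 5115 UMIs, against 2286 and 2546 in Ikzf2-alone cells. The part of depth in these differences was not tested.

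Coreceptor RNA differed between the sets. At 1500 UMIs per cell, Cd8a or Cd8b1 without Cd4 was found in 61.1% of the wild type Ikzf2-alone cells (43.5% to 76.9%). In the mutant ones it was 48.1% (34.0% to 62.4%). In the set with Foxp3 or a TNF receptor the same class was 10.7% (2.3% to 28.2%) and 26.8% (16.9% to 38.6%). Cd4 without Cd8 was found in 17.9% and 12.7% of that set and in 5.56% and 1.92% of Ikzf2-alone cells. Many cells had UMIs of neither coreceptor, 57.1% and 52.1% of the set with Foxp3 or a TNF receptor and 22.2% and 46.2% of Ikzf2-alone cells, so the classes give detection and not lineage. In resting double-positive cells, which had to hold a Cd8 UMI at full depth, 4.05% and 4.24% had neither at this depth.

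**Figure D3:**
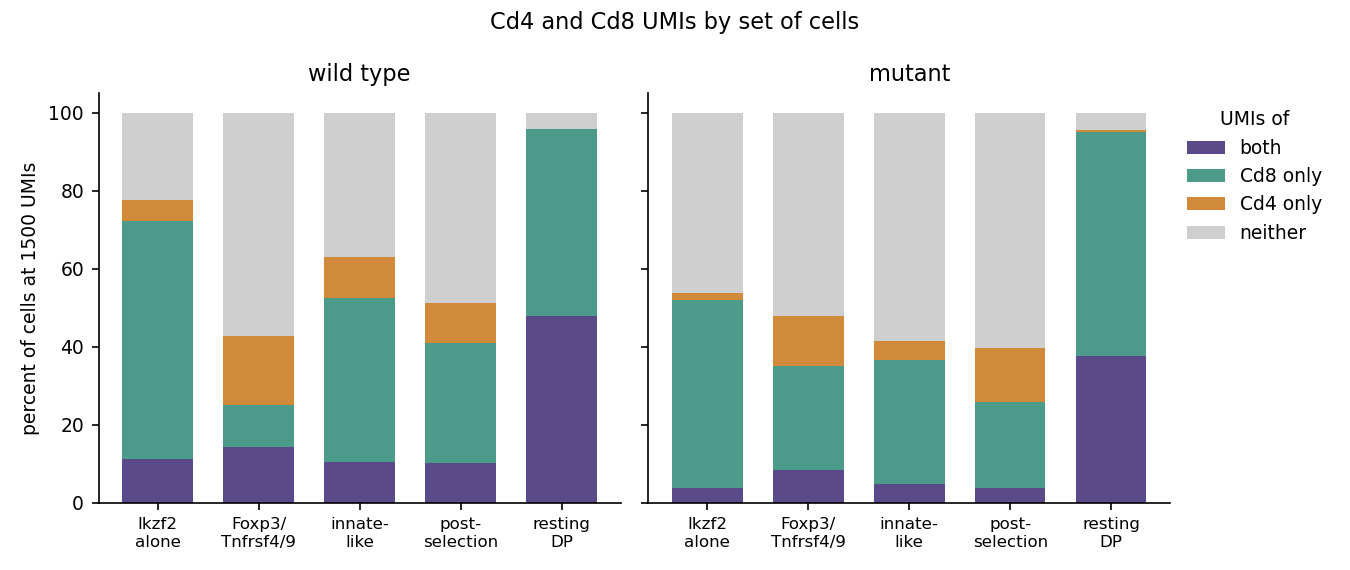
Percent of cells (y axis) with UMIs of Cd4 and Cd8 (Cd8a or Cd8b1), of Cd8 alone, of Cd4 alone or of neither, after thinning to 1500 UMIs, in 3 sets of gated cells, other post-selection cells and resting double-positive cells of each library. Cd8 alone is the largest class of Ikzf2-alone cells, at 61.1% and 48.1%.

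The few cells with a Foxp3 UMI, 4 in wild type and 13 in mutant, held RNA of Tnfrsf18 and Ikzf4. Tnfrsf18 was at 546 CPM (273 to 978) in the wild type and 992 CPM (712 to 1345) in the mutant cells, but in wild type all of it came from 1 cell. Ikzf4 was at 298 and 266 CPM, in 4 of 4 and 7 of 13 cells, against 65.3 and 72.9 CPM in all gated cells. Izumo1r was at 248 CPM in wild type and at 72.6 CPM in mutant, from 5 and 3 UMIs, against 120 and 125 CPM in all gated cells. Bcl2l11 had 0 UMIs in both, which at a limit of 3 UMIs allows up to 149 and 72.6 CPM, against 134 and 144 CPM over all gated cells. In wild type that is within the limit. Nr4a1 had 0 and 2 UMIs, and in wild type the same limit of 149 CPM lies above its 144 CPM over all gated cells, so the 0 shows no difference. The inhibitory receptor gene Ctla4 was at 49.7 and 121 CPM from 1 and 5 UMIs. These levels rest on 20130 and 41341 UMIs in all.

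The gated cells were next compared with cells outside the gate, called other post-selection cells. These had at least 3 UMIs of Itm2a and Cd69 together, a gate sum under 3 and the same exclusions. They were 78 wild type and 112 mutant cells, with medians of 2556.5 and 2773.5 UMIs. Among gated cells any Itm2a UMI was found in 27 of 83 and 75 of 169. Of 2147 genes measured, 8 were at least 2-fold higher in gated cells in both libraries (0.373%) and 6 at least 2-fold lower (0.279%). The 8 higher genes were Tnfrsf18, AW112010, Chchd10, Bcl2l11, Myb, Smc4, Ctsw and Srgn. In wild type alone 48 genes (2.24%) were higher and 28 (1.3%) lower, and in mutant alone 14 (0.652%) each way.

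Tnfrsf18 led, at 182 CPM in gated against 33.6 CPM in other post-selection cells of wild type, and at 278 against 47.9 CPM in mutant. Its log2 ratios were 2.44 (1.36 to 3.72) and 2.54 (1.83 to 3.33). After thinning to 1500 UMIs it was found in 18.1% and 24.4% of gated cells, against 7.43% and 7.91% of resting double-positive cells. Without thinning those shares were 30.1% and 42.0% against 10.5% and 11.5%. Tnfrsf18 was thus detected more often in gated cells than in double-positive cells at 1 depth in each library.

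Bcl2l11, the BH3-only killer of strongly signalled thymocytes, was at 134 against 42.1 CPM in wild type and at 144 against 47.9 in mutant. The log2 ratios were 1.67 (0.64 to 2.84) and 1.59 (0.84 to 2.41). With cells gated after thinning, the mutant log2 ratio with 20 CPM added was 0.02 in place of 1.27. Myb, a transcription factor of immature thymocytes, was at 189 against 46.3 CPM and at 149 against 55.9, with log2 ratios of 2.03 and 1.42. AW112010 was at 182 against 54.7 CPM and at 342 against 101. Without the innate-like marked cells its mutant log2 ratio with 20 CPM added was 0.83 in place of 1.58. Ctsw, a cathepsin of cytotoxic and innate-like cells, was at 92.9 against 33.6 CPM and at 200.0 against 71.9. Smc4, a condensin subunit, was at 440 against 168 CPM and at 456 against 194, and Srgn, the granule proteoglycan serglycin, at 378 against 164 and at 451 against 210.

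The next genes by rank were Lgals1, Cd200, Ms4a4b, Prkch, Serp1, Mrpl17 and Ly6d. Cd200, an inhibitory ligand found on activated T cells, was at 158 against 71.5 CPM in wild type and at 183 against 66.5 in mutant. Prkch, a kinase that acts downstream of the T cell receptor in thymocytes, was at 96.3 against 42.1 CPM and at 146 against 61.2. For both genes the intervals were above 0 in both libraries, and the ratio passed 2-fold with 20 CPM added in mutant but not in wild type.

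**Figure D4:**
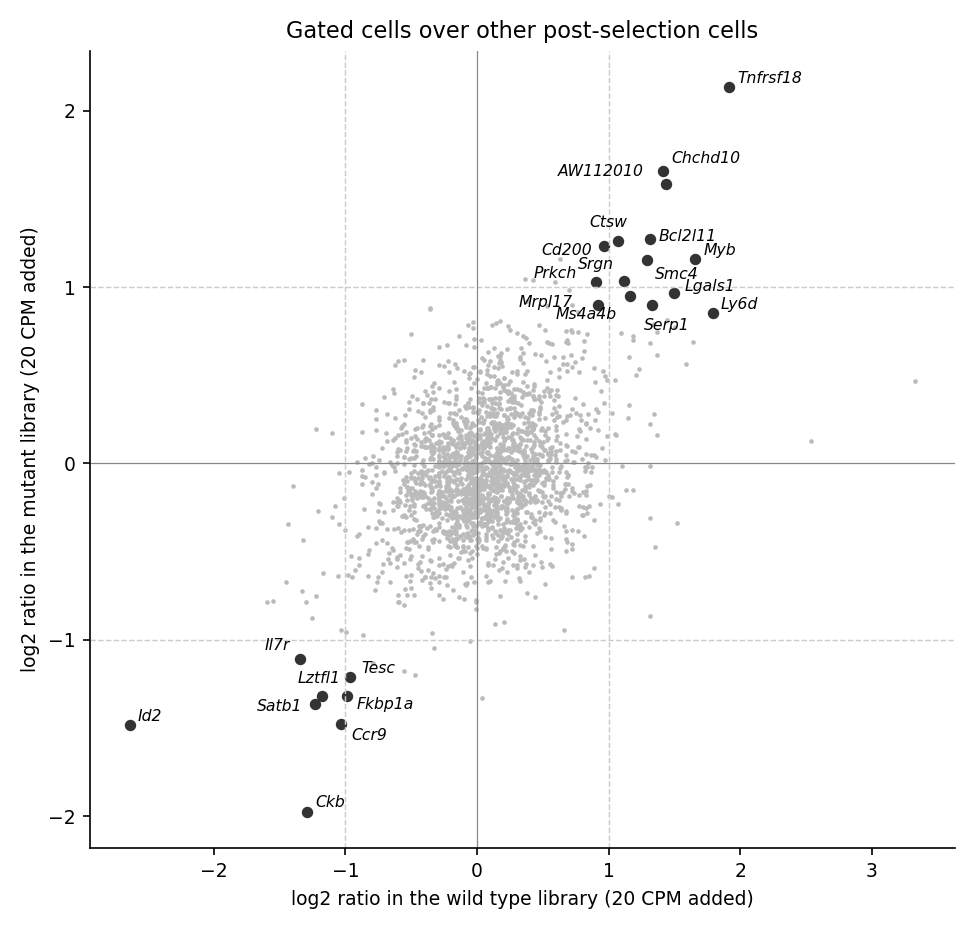
Log2 ratio of gated over other post-selection cells in the wild type (x axis) and the mutant library (y axis), 20 CPM added, for 2147 genes (grey), with named genes in black and dashed lines at 2-fold. Tnfrsf18 is furthest to the upper right and Id2, Ckb and Satb1 lie to the lower left.

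Genes lower in gated cells included regulators of the step after selection. The 6 were Id2, Ckb, Satb1, Lztfl1, Il7r and Ccr9. Id2, an E protein inhibitor of lineage-committed cells, was at 41.3 against 362 CPM in wild type and at 142 against 434 in mutant, log2 ratios of −3.13 and −1.61. Satb1, a chromatin organiser needed in selected thymocytes, was at 1049 against 2490 CPM and at 803 against 2102. Il7r, the IL-7 receptor chain that returns after selection, was at 75.7 against 223 CPM and at 74.6 against 184. Ccr9, a chemokine receptor of thymocytes, was at 468 against 980 CPM and at 261 against 761. Bcl2, the survival gene induced at positive selection, was at 251 against 648 CPM and at 444 against 780, with intervals below 0 in both. Itm2a and Cd69 defined the other cells and are not among the genes ranked. Itm2a was at 272 against 2023 CPM in wild type and at 420 against 2073 in mutant. Lower values of genes that follow selection can thus come in part from this choice of cells, and that part was not tested.

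NF-kB genes were mostly higher in gated cells. Of 7 measured members of the list, 6 were higher in both libraries and 1, Traf4, lower, with median log2 ratios (20 CPM added) of 0.63 in wild type and 0.86 in mutant. Over all 2147 genes the medians were 0.05 and −0.06, with 572 higher and 646 lower in both libraries. Rel, the c-Rel subunit, whose promoter above held 2 kappa-B matches, was at 96.3 against 21.0 CPM in wild type and at 91.5 against 45.2 in mutant, log2 ratios of 2.19 (0.80 to 3.92) and 1.02 (0.21 to 1.90). Nfkb1, the p50 subunit, was at 144 against 79.9 CPM and at 151 against 71.9. Nfkbia, the inhibitor IkBa and itself a target, was at 447 against 290 CPM and at 476 against 224, with log2 ratios of 0.62 (0.19 to 1.07) and 1.09 (0.73 to 1.46). Relb, the partner of p52, was at 92.9 against 46.3 CPM and at 98.3 against 45.2, and in wild type its interval (−0.05 to 2.16) spans 0. No member of the list passed 2-fold in both libraries. This list was chosen with earlier results of these data known.

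Genes of the T cell receptor response were higher in 8 of 11 measured, with medians of 0.68 in wild type and 0.19 in mutant, and 2 were lower in both. Itm2a and Cd69 belong to this list but defined the other cells, so they are not among the 11. With them, the whole list summed to 3078 against 4311 CPM in wild type and to 3046 against 4588 in mutant. Nr4a1 was at 144 against 71.5 CPM in wild type (log2 ratio 1.01, 0.17 to 1.92) and at 188 against 152 in mutant (0.31, −0.16 to 0.80). Dusp5, an ERK phosphatase, was at 103 against 42.1 CPM and at 76.3 against 66.5. Cd5 was at 285 against 257 CPM and at 283 against 240, with intervals that span 0. Egr1 and Nab2, an inducible factor and its repressor, were lower in both, Egr1 at 86.0 against 139 CPM and at 64.4 against 101, also with intervals that span 0. Of regulatory T cell genes outside the gate 5 were measured, of which 1, Tnfrsf18, was higher in both libraries and 3 were lower. Izumo1r was among the lower, at 120 against 156 CPM and at 125 against 136.

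Other lists were mixed. Of the CD4 lineage list 2 of 8 were higher and 5 lower, with Satb1, Tox and Lef1 lower and Myb higher. Of TNF family genes outside the gate 2 of 3 were higher, Ltb at 536 against 320 CPM and at 748 against 434, while Cd40lg was lower at 37.8 against 118 and at 27.1 against 66.5. Of immature double-positive genes 5 of 7 were higher, with medians of 0.69 and 0.61, Cd24a at 444 against 160 CPM and at 339 against 194. Of the maturation list 5 of 9 were higher and 2 lower, of interferon-inducible genes 4 of 5 higher, of MYC-activated growth genes 10 of 18 higher and 1 lower, of the death list 2 of 6, of survival genes 4 of 6, of cytokine receptor genes 5 of 9, of glycolysis genes 1 of 6, of stress genes 2 of 7, of cathepsins 1 of 3 and of CD8 lineage genes 1 of 1 higher in both libraries.

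Against other mature CD4 cells (Cd4 detected, Cd8 not, at least 2 UMIs of Ccr7, Klf2 and S1pr1, gate sum under 3), the gated cells held more RNA of immature double-positive genes and less of mature-cell genes. That set held 16 wild type and 61 mutant cells. Of 1368 genes measured, 45 were at least 2-fold higher in both libraries (3.29%) and 7 at least 2-fold lower (0.512%). In wild type alone 241 (17.6%) were higher and 29 (2.12%) lower, and in mutant alone 73 (5.34%) and 9 (0.658%). Cd24a, lost on maturation, was at 444 CPM against 0 UMIs in wild type and at 339 against 31.7 CPM in mutant. Myb was at 189 and 149 CPM against 0 UMIs and 4.53 CPM, and Bcl2l11 at 134 and 144 CPM against 0 UMIs and 4.53 CPM. Ly6d, a surface antigen of immature lymphocytes, was at 413 against 18.0 CPM and at 290 against 40.7, and Ccr9 at 468 against 36.1 and at 261 against 49.8. All 7 measured immature double-positive genes were higher in both libraries, with medians of 2.85 and 1.13, against 0.31 and 0.23 over all genes. Of all 1368 genes 774 were higher and 215 lower in both libraries, so most list members would be higher at that share.

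Genes of mature cells were lower. Igfbp4, an insulin-like growth factor binding protein gene, was at 10.3 against 758 CPM in wild type and at 203 against 787 in mutant. The GTPase gene Gimap4, which is on in mature T cells, was at 99.7 against 379 CPM and at 147 against 326, and Fxyd5, Atp1b3 and Arl4c had log2 ratios between −2.05 and −1.35. Of 8 measured maturation genes 0 were higher and 7 lower in both libraries, with medians of −0.87 and −0.70. Over all 1368 genes 774 were higher and 215 lower. The mature CD4 cells were picked by 3 other genes of that list and by the absence of Cd8, so this direction follows in part from the choice of cells. The wild type values rest on 55444 UMIs of 16 cells.

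Between the libraries, with all gated cells pooled, mature-cell and interferon-inducible genes were higher in mutant and double-positive and growth genes mostly lower. Of 3465 genes measured, 42 were at least 2-fold higher in mutant (1.21%) and 17 at least 2-fold lower (0.491%). The 10 furthest higher were Igfbp4, Xcl1, Lyz2, Nrgn, Ctse, S100a6, Klf2, Ly6a, Nkg7 and Plac8. The 10 furthest lower were Ccl22, Ccl17, Hist1h2ap, Ccl5, Cst3, Dnajc15, Tubb2b, Basp1, Epsti1 and Hmgb2.

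Several of these rest on 1 cell. All 73 Ccl22 and all 69 Ccl17 UMIs were in 1 wild type cell of 14750 UMIs, which also held 83.0% of the Ccl5 and 67.6% of the Cst3 UMIs, 11 Ikzf2 UMIs and 12 Cd3g UMIs. That cell held 76 UMIs of the dendritic and macrophage markers, 69 of them Cst3, and 163 of the innate-like markers, 156 of them Ccl5. It is in the innate-like marked set. In mutant, 1 cell held 58.5% of the Xcl1 UMIs and another, with 50 dendritic and macrophage marker UMIs, 69.8% of the 43 Lyz2 UMIs. In wild type 53.8% of the Hist1h2ap UMIs were in 1 cell. Without the 2 wild type and 7 mutant cells with over 20 such marker UMIs, the log2 ratio with 20 CPM added of Xcl1 was −0.58 in place of 2.55 and that of Ccl5 0.41 in place of −1.66. Both genes are among the markers that picked the cells left out, so these values show how few cells carry the difference and are no independent check.

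**Figure D5:**
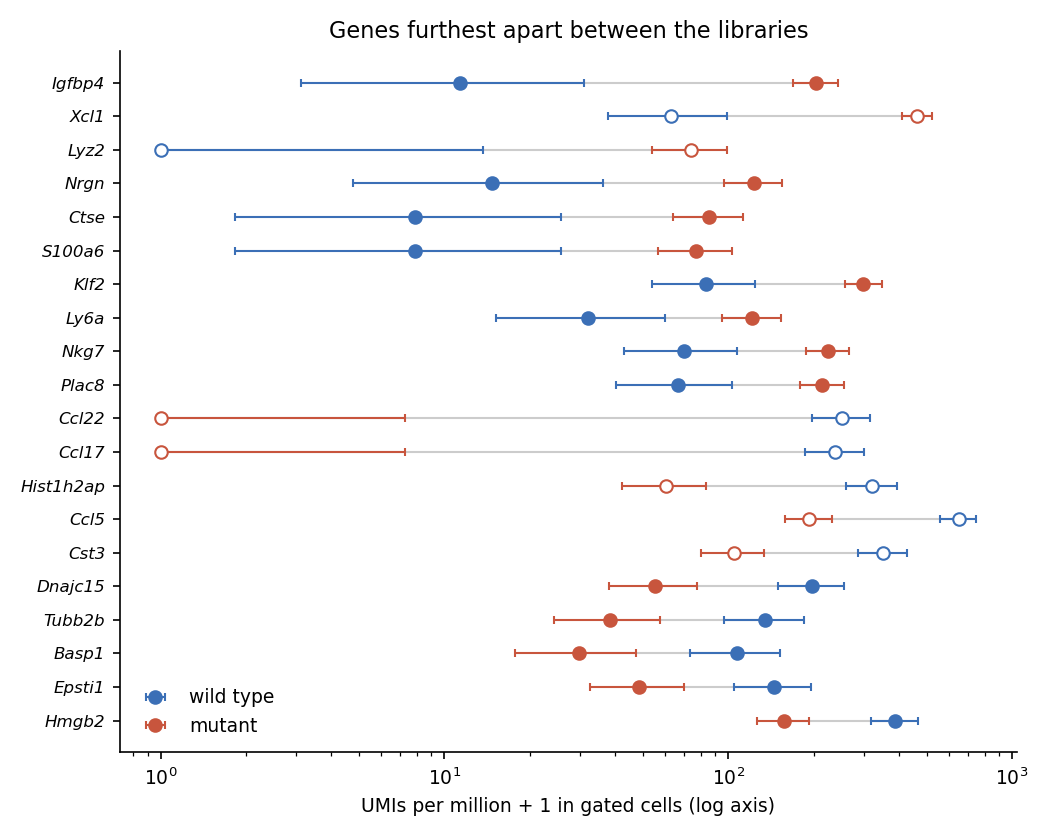
CPM plus 1 (log x axis) in gated cells of wild type (blue) and mutant (red) for the 10 genes furthest higher and the 10 furthest lower in mutant, with exact Poisson intervals. Open points mark genes for which 1 cell gave over 50% of the UMIs of the higher library, among them Ccl22, Ccl17, Xcl1 and Lyz2.

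Klf2, the factor that drives thymic exit genes, was at 82.5 CPM (18 of 83 cells) in wild type and 298 CPM (66 of 169 cells) in mutant, a log2 ratio of 1.85 (1.23 to 2.53). The ratio was above 0 in each of the 3 sets, 1.45 with Foxp3 or a TNF receptor, 2.27 in Ikzf2-alone and 2.02 in innate-like marked cells. Kept cells outside the gate had Klf2 levels of 65.8 and 182 CPM, with a log2 ratio of 1.47 (1.30 to 1.63). Within other post-selection cells the Klf2 ratio was 1.12 (0.23 to 2.09). Within resting double-positive cells it was 0.40 (−0.20 to 1.01) and within mature CD4 cells 0.35 (−0.21 to 0.94). Igfbp4 was at 10.3 CPM from 3 UMIs in wild type and 203 CPM in mutant. Its log2 ratio was 4.30 (2.72 to 6.60), and it was outside the gate at 64.4 and 166 CPM (1.36, 1.19 to 1.53). Of the 120 mutant Igfbp4 UMIs in gated cells 78 were in the innate-like marked set. In other post-selection cells Igfbp4 was also higher in mutant, at 16.8 and 218 CPM (3.70, 2.29 to 5.61). In resting double-positive cells it was lower in mutant, at 52.6 and 13.9 CPM (−1.92, −2.99 to −0.97), and in mature CD4 cells it was at 758 and 787 CPM. Ctse, cathepsin E, was at 6.88 and 84.8 CPM, in 2 and 39 cells, and outside the gate at 6.79 and 74.6 CPM. Nkg7, a granule protein gene, was at 68.8 and 224 CPM in all gated cells and at 176 and 553 CPM in the innate-like marked set, which it helped to define. S100a6, Plac8 and Nrgn had 40.0%, 14.3% and 34.7% of their mutant UMIs in 1 cell, and with the gate at 2 UMIs S100a6 gave −0.27 in place of 1.84.

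Of 13 measured maturation and exit genes 12 were higher in mutant, with a median log2 ratio (20 CPM added) of 0.89. Over all 3465 genes 1667 were higher and 1798 lower, with a median of −0.01, and each list count is to be read beside that share. The exit receptor S1pr1 was at 34.4 and 89.8 CPM. The class I genes H2-K1 and H2-D1 were at 399 and 778 CPM and at 543 and 1026 CPM, and their light chain B2m at 1554 and 2492 CPM. Each of these 4 had an interval above 0. All 10 measured interferon-inducible genes were higher, with a median of 0.56, Ifi27l2a at 984 and 1687 CPM and Isg15 at 72.2 and 153 CPM. Of cathepsins 8 of 9 were higher, with a median of 0.57, among them Ctsl at 37.8 and 117 CPM. Outside the gate B2m (850 and 1790 CPM), Ifi27l2a (328 and 732 CPM) and Ctsl (91.9 and 420 CPM) were also higher in mutant when all these cells were pooled. In resting double-positive cells Ifi27l2a was lower in mutant, at 323 and 180 CPM (−0.84, −1.14 to −0.55), and in mature CD4 cells it was at 3463 and 3005 CPM with an interval that spans 0. B2m was at 2940 and 3032 CPM in mature CD4 cells, also with an interval that spans 0, and Ctsl at 141 and 1228 CPM in resting double-positive cells. Other post-selection cells had the direction of the gated cells. There Ifi27l2a was at 450 and 1001 CPM (1.15, 0.84 to 1.48) and B2m at 980 and 1682 CPM (0.78, 0.56 to 1.00). The pooled values thus mix cell sets that differ in level and in direction. Whether gated cells differed from other cells in these ratios was not tested.

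Genes of the double-positive stage were lower in mutant in 8 of 8 measured, with a median of −0.36, Dntt at 275 and 175 CPM, Rag1 at 124 and 71.2 CPM and Ccr9 at 468 and 261 CPM. Of the CD4 lineage list 9 of 10 were lower, with a median of −0.27, and of the CD8 list 3 of 4, Cd8a at 457 and 319 CPM. Tcf7, a factor of early T lineage cells, was at 887 and 625 CPM. These intervals lay below 0, and within the set with Foxp3 or a TNF receptor Cd8a (160 and 248 CPM) and Tcf7 (534 and 615 CPM) had the other direction, with intervals that span 0. Ikzf2-alone cells were 56 of 169 gated cells in mutant and 36 of 83 in wild type, and the part of that makeup in these ratios was not tested.

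Myc itself, the gene the mutated enhancer controls, was hardly detected in gated cells. It was at 37.8 CPM in wild type (11 UMIs in 7 cells) and 42.4 CPM in mutant (25 UMIs in 14 cells), a log2 ratio of 0.16 with an interval of −0.91 to 1.33. Myc levels outside the gate, all cells pooled, were 45.5 and 21.2 CPM, with a log2 ratio of −1.10 (−1.42 to −0.79). In other post-selection cells Myc was at 42.1 and 45.2 CPM (0.11, −1.10 to 1.39). In resting double-positive cells it was at 28.2 and 5.78 CPM (−2.29, −4.04 to −0.85). The difference between these ratios was not tested. MYC-activated growth genes were lower in 18 of 19 measured, with a median of −0.21, Ran at 506 and 329 CPM and Nme1 at 461 and 312 CPM. With the gate at 4 UMIs that median was 0.03. The whole list summed to 6385 and 4592 CPM in the set with Foxp3 or a TNF receptor. In innate-like marked cells the sums were 7211 and 5273 CPM. In Ikzf2-alone cells the sum was higher in mutant, at 4364.5 and 5073 CPM. It was also higher in other post-selection cells (4787 and 5123 CPM). In mature CD4 cells (3986 and 3751 CPM) and resting double-positive cells (3751 and 3381 CPM) it was lower in mutant. Gata3, which encodes the factor that reads GATA sites in T cells, was at 155 and 131 CPM, with an interval that spans 0.

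Genes of the agonist response had no common direction between the libraries. Of 16 measured T cell receptor response genes 7 were higher and 9 lower in mutant, with a median of −0.03. Nr4a1 was at 144 and 188 CPM and Cd5 at 285 and 283 CPM, both with intervals that span 0. Cd69 (79.1 and 153 CPM) and Itm2a (272 and 420 CPM) were higher and Cd28 (695 and 475 CPM) lower, with intervals clear of 0. Of NF-kB genes 9 of 13 were higher, with a median of 0.07, and Rel, Nfkb1 and Nfkbia had log2 ratios between −0.07 and 0.09. The log2 ratio of Bcl2l11, at 134 and 144 CPM, was 0.10 (−0.46 to 0.69). Intervals of this width do not show that the levels were alike.

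Regulatory T cell genes outside the gate were higher in mutant in 7 of 9 measured, with a median of 0.13. For Tnfrsf18 the log2 ratio was 0.61 (0.15 to 1.08). Il2ra encodes CD25, part of the receptor for IL-2, and its levels were 68.8 and 120 CPM (0.81, 0.07 to 1.60). The difference of Tnfrsf18 was smaller within the set with Foxp3 or a TNF receptor, at 374 and 418 CPM (0.16, −0.42 to 0.77). Of survival genes 4 of 8 were higher, Bcl2 at 251 and 444 CPM (0.82, 0.44 to 1.22). Of the death list 5 of 8 were higher, Gadd45b at 24.1 and 74.6 CPM, of TNF family genes 3 of 4, of cytokine receptor genes 8 of 14, of NOTCH targets and receptors 2 of 2, of glycolysis genes 2 of 7 and of stress genes 3 of 7.

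Markers of other cell types were looked for in the gated cells. Of 8 B cell markers 2 were detected in wild type and 4 in mutant, at 426 and 325 CPM in sum, nearly all of it Ly6d, and Ms4a1, Ebf1 and Pax5 had 0 UMIs. Resting double-positive cells held 1160 and 1387 CPM of the same list. Of 10 dendritic and macrophage markers 5 and 6 were detected, at 378 and 254 CPM, with Csf1r, Itgax and Siglech at 0. In wild type 1 cell gave 69.1% of the dendritic and macrophage marker UMIs and in mutant 1 cell gave 33.3%. Of 14 innate-like markers 9 and 12 were detected, at 915 and 1095 CPM, with Gzmb and Klra1 at 0. Of these UMIs 1 cell gave 61.3% in wild type and 1 cell 29.7% in mutant. Gamma-delta markers summed to 51.6 and 30.5 CPM, early double-negative markers to 138 and 278, plasma cell markers to 82.5 and 69.5, epithelial and stromal markers to 82.5 and 96.6 and erythroid markers to 3.44 and 6.78 CPM. Cell cycle genes outside the gate summed to 1438 and 1420 CPM. The part of these cells in the differences between the libraries was not tested beyond the values without the most marked cells given above.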

How the data were processed

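Thymocytes of 1 wild type and 1 mutant mouse sample (5000 cells loaded each) were profiled with the 10x 3' v2 kit, per the labels' protocols. Each deposited table holds UMI counts, not normalized, for every barcode and gene symbol, and was made by the authors with Cell Ranger on mm10, per the submitters' processing notes. The version and the step that set the lowest UMI total of each library are not given in the sources used here. Barcodes with at least 400 genes and at most 10% mitochondrial UMIs were kept, which left out 5 and 6. No cell was left out as a doublet, and since Scrublet (scanpy 1.11.5, expected rate 4%) called 1 and 5 cells, uncalled doublets can remain. Members, gene lists and tests were chosen with earlier results of these data known, and the 3 sets within the gate after their values had been seen.

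UMIs were summed over the cells of a set, with exact Poisson intervals for levels, exact conditional intervals for ratios, Clopper-Pearson intervals for shares and Newcombe intervals for their differences, all at 95%. A gene was measured with at least 30 UMIs over both sides (in each library where both are compared) and called at 2-fold after 20 CPM was added to both sides. Log2 ratios with intervals have nothing added. A fold against 0 UMIs would be taken against a floor of 3 UMIs. Gate genes, genes that define a comparison group, mitochondrial, ribosomal protein, sex-linked, haemoglobin and receptor segment genes were not ranked. Named genes were the 10 highest and 10 lowest between the libraries, the 15 highest and 8 lowest against post-selection cells and the 8 highest and 5 lowest against mature CD4 cells, each by the library nearer to 0, plus members of 17 gene lists and 9 marker lists. The same ranking gave the genes named between sets. Scripts were tested on simulated data. Genes sharing reads with close copies, such as H2-K1 and H2-D1, are uncertain. Some items are not reported here.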

Additional observations from a re-analysis of the deposited data

Results flagged for a closer look

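S100a11, a calcium-binding protein gene, went opposite ways in the libraries when gated cells were set against other mature CD4 cells. With 20 CPM added the log2 ratio was −2.06 in wild type, at 58.5 CPM in gated and 307 CPM in mature CD4 cells. It was 1.40 in mutant, at 188 and 58.8 CPM. The wild type mature CD4 set held 16 cells and 17 S100a11 UMIs. The difference between the libraries was not tested.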

How the results depend on the processing

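No paired analysis was possible because each group was 1 library. Of 17 alternatives 15 were planned and 2 added after seeing the data (a gate without Ikzf2, and leaving out the most marked cells of other types). The difference in share moved with Foxp3 cells alone (0.45 points) and with the gate without Ikzf2 (1.56 points), and in the other 9 of 11 it moved by less than its interval. Of 102 counts 72 stayed within 1.5 times.
Between the libraries the 42 genes higher became 20 at a gate of 2 UMIs, 8 with Foxp3 cells alone, 87 with 5 CPM and 15 with 50 CPM added, and 81 at a minimum of 10 UMIs. The 17 lower became 9, 40, 8 and 49 with Foxp3 cells alone, 5 CPM, 50 CPM and 10 UMIs. Against post-selection cells the 8 higher became 15 at a gate of 2 UMIs, 3 with Foxp3 cells, 13 without ribosomal and mitochondrial genes in the total, 13 with cells weighted equally, 13 with 5 CPM, 3 with 50 CPM and 21 at 10 UMIs. The 6 lower became 84 with Foxp3 cells, 20 without Ikzf2 and 11 with 5 CPM. Against mature CD4 cells the 45 higher became 69 at a gate of 2 UMIs, 29 without innate-like marked cells, 0 with Foxp3 cells, 4 without Ikzf2, 23 with 50 CPM and 100 at 10 UMIs. The 7 lower became 2 after thinning, 4 without innate-like marked cells, 3 without Ikzf2, 4 with 50 CPM and 13 at 10 UMIs. The cause was not tested.
Of 244 list medians 213 moved by no more than the margin of the counting interval of the list's summed UMIs, and 31 by more. In 16 of the 244, over 6 lists whose main medians were within 0.21 of 0, the median had the other sign, among them the MYC list at a gate of 4 UMIs (0.03) and the stress list after thinning (0.34). Of named genes Xcl1 (−0.58) and Ccl5 (0.41) reversed without the most marked cells, S100a6 (−0.27) at a gate of 2 UMIs and Srgn in mutant (−0.48) with Foxp3 cells alone. Ly6d over post-selection cells in mutant, 0.85 and not called, was −3.10 with Foxp3 cells alone and −0.92 without Ikzf2. With 13 mutant and 4 wild type Foxp3 cells, depth limits every value of theirs.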
